A study of Mus musculus with 30 samples.

Results

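Lectin-like, sialic acid-binding, Ms4a and paired immune receptors were followed in bulk RNA sequencing of mouse microglia. Members were the rows whose gene symbol begins with Clec and a digit, Siglec, Ms4a, Cd300, Lilr, Pilr, Pira or Pirb, together with Cd22, Cd33, Cd200r1 and Sirpa, leaving out Clec7a, Clec12a, Siglech and Ms4a7. The rule found 36 of 14225 transcripts, for 35 gene symbols, since Ms4a6c is listed as 2 transcripts (NM_028595 and NM_001166376). No row matched Cd22 or a Pira gene. By family there were 11 C-type lectin (Clec) rows, 7 Ms4a rows, 6 Cd300 rows, 5 Siglec rows with Cd33 counted among them, 3 Pilr rows, 2 Lilr and Pir rows (Lilra5 and Pirb), and Sirpa and Cd200r1. The rule reads gene symbols and no measured values, but the members were chosen with earlier results of these data known.

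These receptors sit on the surface of myeloid cells and read sugars, lipids, MHC class I or partner proteins on other cells. Many come in pairs that share a ligand: an inhibitory member carries ITIM motifs in its cytoplasmic tail and recruits phosphatases such as SHP-1, and an activating member signals through an adaptor with an ITAM, DAP12 (Tyrobp) or the Fc receptor gamma chain (Fcer1g). In the brain, CD200 and CD47 on neurons are known to restrain microglia through CD200R1 and SIRPA, and Siglecs bind the sialic acid that coats neurons. Ms4a genes encode small membrane proteins that cross the membrane several times, and they lie side by side in the genome.

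Microglia were taken from whole brain of C57BL/6J mice with beads against CD11B, a surface integrin of myeloid cells, and the 30 RNA libraries fall into 10 groups of 3. Dams had been given poly(I:C), which mimics viral RNA and provokes maternal immune activation ("MIA"), or saline ("Saline") in early pregnancy. Their offspring were sampled at E17, P7, P20 and P60, without any gene edit or transgene. At P60 both prenatal groups were divided by diet: control chow throughout ("CTRL"), or chow with PLX5622, a CSF1R inhibitor that removes microglia, after weaning and control chow afterwards, so that microglia had returned by P60 ("MG-REP"). The 10 groups are therefore E17 Saline, E17 MIA, P7 Saline, P7 MIA, P20 Saline, P20 MIA, P60 Saline + CTRL, P60 MIA + CTRL, P60 Saline + MG-REP and P60 MIA + MG-REP. According to the methods of the study, the brains of a litter were pooled at E17 and 3 brains were pooled at P7, and 1 brain made a library at P20 and P60, with both sexes used. PLX5622 acts on every cell that needs CSF1R and not on microglia alone. CD11B is also carried by monocytes, neutrophils and border macrophages, which the beads would keep.

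Levels are given in TPM, which is scaled for transcript length and library total. Differences are in log2(TPM + 1) from limma fitted to all 14225 transcripts and all 30 libraries, so that they understate the change of transcripts near 1 TPM, and a transcript is called when its Benjamini-Hochberg adjusted p over the whole table is under 0.05. The p-values measure the spread between these libraries, and the labels do not state litters. The step between low values gave an estimated 7990000 to 12830000 counted reads a library (median 10455000). In bulk RNA, fewer cells of a type and less RNA per cell cannot be told apart. Libraries 2 and 3 of both CTRL groups carried Y-linked RNA (summed 268 to 318 TPM) with Xist under 0.3 TPM. Library 1 of each, all 6 MG-REP libraries and all 6 P20 libraries had Xist of 124 TPM or more. Sex was therefore not balanced between CTRL and MG-REP. The P7 Saline libraries held both, at 125 to 173 TPM of Y-linked RNA and 106 to 128 TPM of Xist. Y-linked RNA was at most 0.59 TPM in the P20 libraries, and 0.1 and 285 TPM in P7 MIA libraries 2 and 3. Sex thus also differed between P7 and P20 and between the P7 groups, and its part there was not tested. The 8 microglial markers (among them Tmem119, P2ry12, Sall1 and Cx3cr1) summed to 16514 TPM or more in every library, E17 MIA library 1 being lowest. Among monocyte and neutrophil markers, Saline + MG-REP library 2 stood apart at 5435 TPM over 11 genes, against 92.9 to 1633 TPM in the other 29 libraries. None of 6 mast cell and basophil markers has a row.

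Receptor levels ranged widely. Over the 30 libraries, 35 of the 36 transcripts averaged 1 TPM or more, 20 averaged 10 TPM or more and 3 averaged 100 TPM or more. Cd300c2, an activating Cd300 receptor, was the most abundant member at a mean of 416 TPM and ranked 312 of 14225, followed by Ms4a6d at 161 TPM (rank 1119) and Ms4a6b at 122 TPM (rank 1591). Clec5a, a DAP12-coupled lectin, was the least abundant at 0.988 TPM, an estimated 3.3 reads a library. Values of Clec4a4, Cd300ld3 and Pilrb1 likewise rest on an estimated 4.2 to 6.5 reads. With so few reads Clec5a would not have passed the authors' filter, a CPM of 2 in 3 or more libraries. The read estimates conflict with that filter and are uncertain. The group with the highest mean was Saline + MG-REP for 18 of the 36 transcripts (50%). The authors' clustering, which used these same values, had placed 15 of the 36 (41.7%) in the module named for repopulated adult microglia, against 7.97% of all transcripts in the table.

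**Figure D1:**
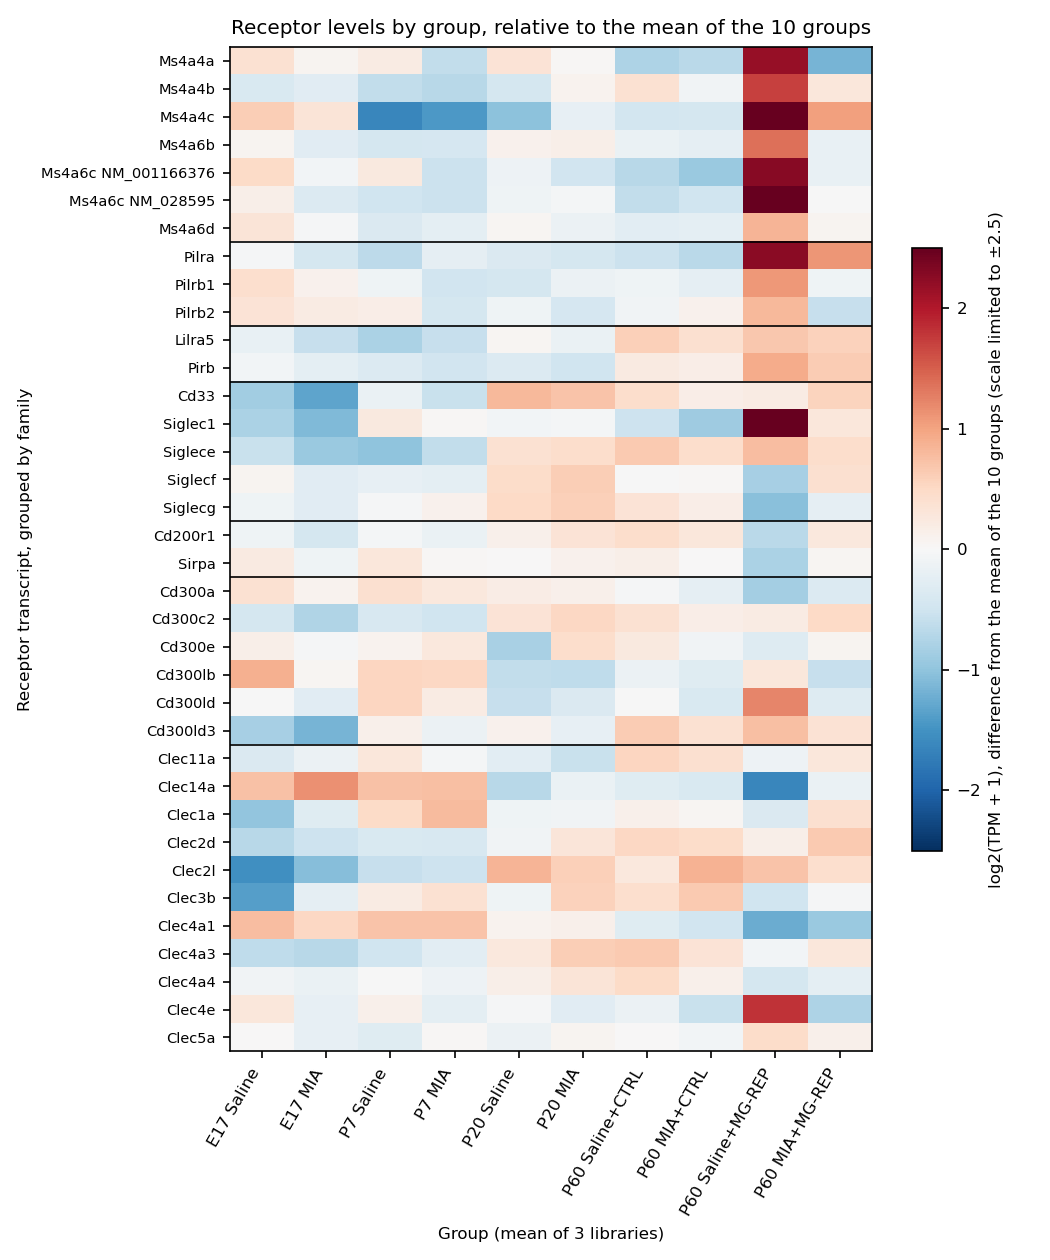
Mean log2(TPM + 1) of each of the 36 receptor transcripts (rows, by family) in the 10 groups (columns, 3 libraries each), as the difference from the mean of the 10 groups, with red higher and blue lower. All 7 Ms4a rows, Pilra, Siglec1 and Clec4e are reddest in the Saline + MG-REP column, where Siglecg, Siglecf, Sirpa, Cd200r1, Clec14a and Clec4a1 are blue.

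The largest differences were between repopulated and control microglia of Saline offspring at P60. Of the 36 receptor transcripts, 13 were higher and 8 lower in Saline + MG-REP than in Saline + CTRL, 58.3% called in either direction against 26.7% of all transcripts tested (11.9% higher and 14.9% lower). All 7 Ms4a rows rose, and the other rises were Pilra, Pilrb2, Pirb, Siglec1, Clec4e and Cd300ld. The falls included the receptors for CD47 and CD200 and both B-lineage and eosinophil Siglecs. The median difference was 0.12 over the members and -0.145 over all transcripts. In 10 members all 3 Saline + MG-REP libraries lay above every one of the other 27 libraries (27.8%, against 2.12% of all transcripts), and in 4 they lay below every other library (11.1%, against 4.79%). A row kept by the authors' filter on low counts could have passed it through this group alone, which matters for rows near 1 TPM elsewhere, such as Ms4a4b and Pilrb2.

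The Ms4a genes showed the strongest response. The 6 genes lie within chromosome 19, from 11375488 (start of Ms4a4a) to 11604804 (end of Ms4a6d) in GRCm38.p6, and their transcripts summed to 311 ± 51.7 TPM (SD, n = 3) in Saline + CTRL and to 1293 ± 239 TPM in Saline + MG-REP. Ms4a6c (NM_028595) stood at 38.4, 29.6 and 41.3 TPM in the CTRL libraries and at 425, 276 and 295 TPM in the MG-REP libraries. The lowest repopulated library was thus several times above the highest control library, and above every other library of the series. Its mean was 9.12-fold higher and its difference 3.14 ± 0.20 (log2 ± SE, adjusted p = 3.13e-11). The second Ms4a6c transcript (NM_001166376) was far less abundant, at 28.2, 14.5 and 12.97 TPM in MG-REP against 0.43 to 2.09 TPM in CTRL, and rose by 2.97 ± 0.43 (adjusted p = 9.02e-06). Reads of 40 bases cannot always be assigned to 1 of 2 transcripts of a gene, so the split between them is uncertain.

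Ms4a4c had the largest difference of all members. It was read at 5.53, 3.83 and 5.08 TPM in Saline + CTRL and at 70.2, 64.9 and 85.8 TPM in Saline + MG-REP. The groups lay far apart, with a mean ratio of 15.3 and a difference of 3.68 ± 0.34 (adjusted p = 1.18e-08). Ms4a4a went from 39.7, 31.8 and 36.1 TPM to 309.5, 246 and 292 TPM, a 7.87-fold higher mean and a difference of 2.94 ± 0.40 (adjusted p = 4.03e-06). All 3 repopulated libraries were again above every other library, although P7 Saline library 1 had reached 154 TPM. Ms4a6b and Ms4a6d were already abundant in control microglia and rose less steeply. Ms4a6b was 97.9, 81.4 and 124 TPM in CTRL and 371, 245 and 277 TPM in MG-REP, a difference of 1.55 ± 0.22 (adjusted p = 8.54e-06). Ms4a6d was 129, 108 and 152 TPM in CTRL and 344, 237 and 268 TPM in MG-REP, a difference of 1.12 ± 0.22 (adjusted p = 0.000374). Neither pair of groups overlapped. Ms4a4b, known from T cells, was scarce, at 0.95 to 2.41 TPM in CTRL and 4.98 to 7.03 TPM in MG-REP, and rose by 1.33 ± 0.36 (adjusted p = 0.00721). With a pseudocount of 0.1 the Ms4a4b call was lost (1.75, adjusted p = 0.18). Of the 10 NK and T cell markers 5 have a row, namely Gzma, Gzmb, Il2rb, Ncr1 and Nkg7. They summed to 6.99 to 26.3 TPM in Saline + CTRL and 2.23 to 10.1 TPM in Saline + MG-REP. The listed T cell genes Cd3e, Cd3g, Cd8a and Trbc2 have no row, and the part of T cells in the Ms4a4b values was not tested.

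**Figure D2:**
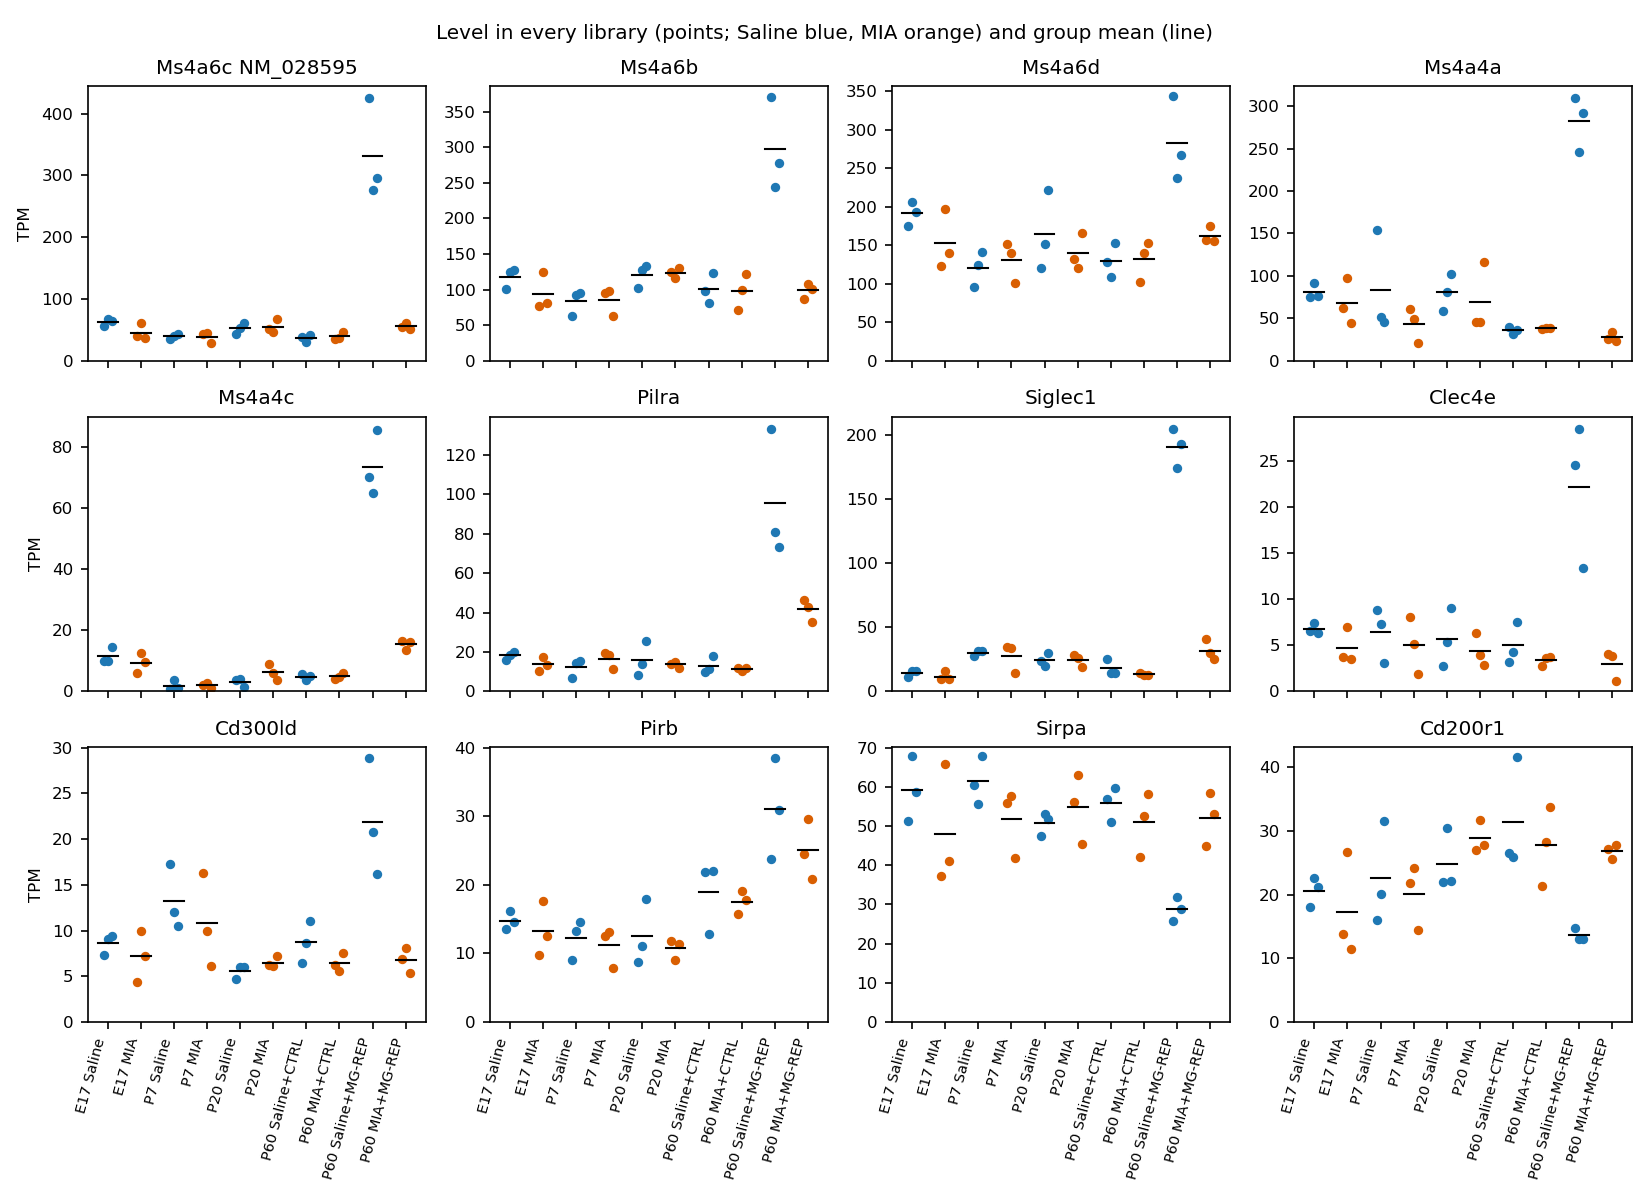
Level in TPM (vertical axes, linear, from 0) of 12 receptor transcripts in every library (points) with the group mean (line), for the 10 groups from E17 Saline to P60 MIA + MG-REP. The 3 Saline + MG-REP points of the Ms4a panels, Pilra, Siglec1 and Clec4e lie above all others, and those of Sirpa lie below all others, at 25.8 to 32.0 TPM.

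The Pilr genes pair an inhibitory receptor, Pilra, with the related activating receptors Pilrb1 and Pilrb2, and lie within chromosome 5, 137821952 to 137871758. Pilra was read at 9.89, 11.3 and 17.7 TPM in Saline + CTRL and at 133, 80.9 and 73.5 TPM in Saline + MG-REP. Every repopulated library was above every library outside the group, with a 7.39-fold higher mean and a difference of 2.78 ± 0.32 (adjusted p = 3.58e-07). Pilrb2 was scarce, at 1.07 to 1.32 TPM in CTRL and 3.31, 3.77 and 2.12 TPM in MG-REP, a difference of 0.89 ± 0.24 (adjusted p = 0.00734). That call was lost with Xist as a covariate and without the 4 CTRL libraries with Y-linked RNA (adjusted p up to 0.166). Pilrb1 missed the threshold at 1.19 ± 0.46 (adjusted p = 0.0561), from 1.08 to 1.19 TPM in CTRL and 5.39, 5.34 and 1.88 TPM in MG-REP, with groups that did not overlap. By the read estimate, 1 read on Pilrb1 was worth a median of 0.254 TPM, so its CTRL values would stand for only a few reads.

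The promoters of Pilra and Pilrb2 are shown because both genes rose and their windows are near-identical. Each window runs from 250 bases before to 50 bases after the RefSeq transcription start (GRCm38.p6), printed 5' to 3' on the gene's strand, with matches to PU.1 (AGAGGAA), ISRE (GAAA, any 2 bases, then GAAA) or C/EBP (TTGCNNAA) letters on either strand in capitals.
Pilra, chr5:137836229-137836528, minus strand: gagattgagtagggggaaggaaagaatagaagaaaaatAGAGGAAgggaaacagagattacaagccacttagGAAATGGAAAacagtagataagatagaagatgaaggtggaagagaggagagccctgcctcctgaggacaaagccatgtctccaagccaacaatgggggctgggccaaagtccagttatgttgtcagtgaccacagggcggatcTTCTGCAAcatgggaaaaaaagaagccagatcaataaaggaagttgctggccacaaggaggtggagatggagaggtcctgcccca
Pilrb2, chr5:137871709-137872008, minus strand: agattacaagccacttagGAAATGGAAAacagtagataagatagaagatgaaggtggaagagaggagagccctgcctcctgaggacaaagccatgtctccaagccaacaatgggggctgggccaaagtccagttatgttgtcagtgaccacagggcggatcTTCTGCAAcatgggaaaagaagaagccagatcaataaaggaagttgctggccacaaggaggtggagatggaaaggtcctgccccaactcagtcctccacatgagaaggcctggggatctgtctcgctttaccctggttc
Moved by 54 bases, the Pilra window matched Pilrb2 at 244 of 246 positions (99.2%) and Pilrb1 at 242 of 246 (98.4%), while Pilrb1 and Pilrb2 matched at 97.3% of their 300 bases in place. All 3 windows held the same ISRE and C/EBP letters, and the PU.1 letters lay only in the Pilra window, in the part that the other windows do not reach. The transcripts themselves were not compared, so how far short reads tell Pilrb1 from Pilrb2 was not tested.

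Over the 28 member genes with a promoter window (30 windows), AGAGGAA, the core that PU.1 binds in myeloid genes, occurred in 11 windows (36.7%) against 10.4% of 32851 windows of all genes. ISRE letters, the element of interferon-stimulated genes, occurred in 5 (16.7% against 3.44%), C/EBP letters in 7 (23.3% against 10.8%), NF-kB letters (GGGA, any base, then TTTCC) in 2 (6.67% against 0.411%) and AP-1 letters (TGANTCA) in 1 (3.33% against 7.81%). Both strands were searched, no match overlapped a match to another motif, and these motifs were chosen after the values were known. The PU.1 letters stood in genes that rose with repopulation (Pilra, Clec4e, Cd300ld and Pirb), in genes that fell (Cd300a and Clec4a1) and in genes that were not called (Lilra5, Clec5a, Clec4a3, Cd300c2 and Cd300ld3). ISRE letters stood in the near-identical windows of Pilra, Pilrb1 and Pilrb2 and in Cd300c2 and Clec2d, which were not called. C/EBP letters stood in the same Pilr windows, in Clec4e, which rose, in Cd300a, which fell, and in Lilra5 and Clec11a, which were not called. The Pilr windows thus count repeatedly in both shares. No window was given for Ms4a6d, Clec3b, Siglec1, Sirpa, Clec1a, Cd200r1 and Clec4a4.

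Pirb, an inhibitory receptor for MHC class I that also binds the myelin inhibitor Nogo, was 21.9, 12.8 and 22.0 TPM in Saline + CTRL and 23.7, 38.5 and 30.9 TPM in Saline + MG-REP. The groups were separated by a narrow gap, and the difference of 0.70 ± 0.26 just passed the threshold (adjusted p = 0.0482). Over 15 alternative settings it was called in 7, with adjusted p from 0.0348 to 0.475. Leaving out Saline + CTRL library 2, Saline + MG-REP library 2 or Saline + MG-REP library 3 was enough to lose it. Lilra5, an activating receptor of the same family that uses the Fc receptor gamma chain, overlapped between the groups, at 32.5 to 44.1 TPM in CTRL and 33.5 to 48.7 TPM in MG-REP, with a difference of 0.08 ± 0.25 (adjusted p = 0.86).

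Siglecs moved in both directions. Siglec1 (sialoadhesin, CD169) has a long extracellular part, lacks an ITIM and marks border macrophages and interferon-exposed myeloid cells. It was read at 25.5, 14.3 and 14.4 TPM in Saline + CTRL and at 205, 174 and 193 TPM in Saline + MG-REP. Its mean was 10.5-fold higher, and the difference was 3.37 ± 0.27 (adjusted p = 1.2e-09), with no library elsewhere above 40.9 TPM. Siglecg, an inhibitory Siglec known from B cells, fell by 1.39 ± 0.30 (adjusted p = 0.00101), from 5.51, 4.65 and 7.04 TPM to 0.96, 2.63 and 1.32 TPM. Siglecf, known from eosinophils and alveolar macrophages, fell by 0.83 ± 0.25 (adjusted p = 0.015), from 1.10 to 1.94 TPM down to 0.22 to 0.55 TPM. This call was lost without Saline + CTRL library 3 (adjusted p = 0.0669) or Saline + MG-REP library 2 (adjusted p = 0.061), and also after quantile normalization (adjusted p = 0.0917), with Xist as a covariate (adjusted p = 0.134) and without the 4 CTRL libraries with Y-linked RNA (adjusted p = 0.125). Siglece, the main inhibitory Siglec of mouse microglia, and Cd33 overlapped between the groups, with differences of 0.13 ± 0.30 (adjusted p = 0.807) and -0.23 ± 0.19 (adjusted p = 0.429). Cd79b, part of the B cell receptor, averaged 2.0 TPM in Saline + CTRL and 0.0633 TPM in Saline + MG-REP, and its partner Cd79a averaged 1.12 and 0.95 TPM. The part of B cells in the lower Siglecg was not tested. The eosinophil markers Ccr3, Epx and Prg2 summed to 6.57 to 14.6 TPM in CTRL and to 1.39, 133 and 2.52 TPM in MG-REP, where Siglecf in the library with 133 TPM was the lowest of the 3.

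Both receptors for neuronal restraint signals fell. Sirpa, the inhibitory receptor for CD47, was 57.0, 50.9 and 59.8 TPM in Saline + CTRL and 25.8, 32.0 and 28.8 TPM in Saline + MG-REP, below every other library, with a difference of -0.93 ± 0.18 (adjusted p = 0.000295). Cd200r1, the inhibitory receptor for CD200, was 26.6, 25.9 and 41.6 TPM in CTRL and 14.8, 12.96 and 13.02 TPM in MG-REP, and it fell by 1.12 ± 0.26 (adjusted p = 0.00218). The groups did not overlap for either gene. The Cd200r1 call was lost when the CTRL libraries with Y-linked RNA were left out, which keeps 1 library in each CTRL group (-0.92, adjusted p = 0.102), and with Xist as a covariate (adjusted p = 0.057). Over the same groups the 8 microglial markers summed to 35859 to 51828 TPM in CTRL and 24949 to 28543 TPM in MG-REP. Their part in the lower Sirpa and Cd200r1 was not tested.

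The 6 Cd300 rows lie on chromosome 11 from 114889152 to 115066676, and several of these receptors bind membrane lipids. Of the 6 rows 1 rose and 1 fell, where 11.9% of all transcripts rose and 14.9% fell. Cd300ld, an activating member, rose by 1.23 ± 0.29 (adjusted p = 0.00208), from 6.47, 8.58 and 11.1 TPM to 28.8, 20.8 and 16.2 TPM. Cd300a, an inhibitory receptor for phosphatidylserine and phosphatidylethanolamine, fell by 0.83 ± 0.20 (adjusted p = 0.00317), from 83.2, 60.3 and 93.0 TPM to 30.8, 53.7 and 49.1 TPM, below every other library. With only the compared groups fitted, the Cd300a call was lost (adjusted p = 0.0791). Cd300c2 overlapped between the groups (-0.18 ± 0.19, adjusted p = 0.547), as did Cd300ld3 (0.11 ± 0.26, adjusted p = 0.798) and Cd300lb (0.43 ± 0.33, adjusted p = 0.377). In Cd300lb, Saline + MG-REP library 2 stood at 11.3 TPM against 4.48 and 3.04 TPM in the other 2. Cd300e was 0.42 to 1.26 TPM in MG-REP and 1.37 to 2.90 TPM in CTRL, and was not called (-0.57 ± 0.37, adjusted p = 0.276).

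Among the 11 C-type lectins 1 rose and 3 fell, where 11.9% of all transcripts rose and 14.9% fell. Clec4e (Mincle) senses mycobacterial glycolipid and a protein released by dying cells, and signals through the Fc receptor gamma chain. It was read at 3.19, 4.26 and 7.52 TPM in Saline + CTRL and at 24.6, 28.4 and 13.4 TPM in Saline + MG-REP. Every repopulated library exceeded all others, with a 4.43-fold higher mean and a difference of 1.95 ± 0.44 (adjusted p = 0.00162). The promoter of Clec4e is shown because it held 2 PU.1 matches and a C/EBP match, with 1 base between the C/EBP match and the nearer PU.1 match, again in capitals.
Clec4e, chr6:123289822-123290121, minus strand: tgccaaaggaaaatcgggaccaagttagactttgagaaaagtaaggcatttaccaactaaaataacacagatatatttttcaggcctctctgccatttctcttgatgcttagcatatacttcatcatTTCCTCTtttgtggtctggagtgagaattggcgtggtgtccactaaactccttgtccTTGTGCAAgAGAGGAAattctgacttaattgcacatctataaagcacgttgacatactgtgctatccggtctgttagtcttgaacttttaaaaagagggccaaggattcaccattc
No member of the Clec4a (DCIR) group of lectins, also on chromosome 6, was called higher. Clec4a1 fell by 0.94 ± 0.22 (adjusted p = 0.00268), from 34.6, 22.95 and 34.2 TPM to 12.4, 16.95 and 16.7 TPM, while Clec4a3 (-0.72 ± 0.36, adjusted p = 0.148) and Clec4a4 (-0.91 ± 0.38, adjusted p = 0.0823) were not called. Clec5a was 3.00, 1.21 and 1.15 TPM in MG-REP and 0.93 to 1.02 TPM in CTRL (0.44 ± 0.22, adjusted p = 0.144).

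Lectins of vessels and matrix went down or did not pass the test. Clec14a, an endothelial glycoprotein, fell by 1.33 ± 0.38 (adjusted p = 0.0103), from 23.5, 20.6 and 17.2 TPM in Saline + CTRL to 5.74, 11.6 and 6.15 TPM in Saline + MG-REP, below every other library. Without Saline + MG-REP library 1 the call was lost (-1.16, adjusted p = 0.0611), as it was without the 4 CTRL libraries with Y-linked RNA (-1.53, adjusted p = 0.0688). The 8 endothelial markers, Cldn5, Flt1 and Cdh5 among them, summed to 1539, 1455 and 940 TPM in the same CTRL libraries and to 369, 754 and 589 TPM in the MG-REP libraries, so both moved down together, and the part of vessel cells in the Clec14a result was not tested. Clec3b (tetranectin, a secreted plasminogen-binding protein) fell by 0.92 ± 0.34 (adjusted p = 0.0437), from 11.8 to 13.2 TPM down to 3.85 to 8.55 TPM. The Clec3b call was lost without any 1 of 5 libraries, all but Saline + MG-REP library 3 (adjusted p from 0.0591 to 0.259). It was also lost with Xist as a covariate (adjusted p = 0.0598), with only the compared groups fitted (adjusted p = 0.0814) and without the 4 CTRL libraries with Y-linked RNA (adjusted p = 0.212). Clec1a (-0.49 ± 0.36, adjusted p = 0.348), Clec11a, a secreted growth factor (-0.65 ± 0.34, adjusted p = 0.176), Clec2d, a ligand of the NK receptor Klrb1b (-0.36 ± 0.26, adjusted p = 0.336), and Clec2l, known from brain (0.45 ± 0.43, adjusted p = 0.49), were not called.

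Marker sums were set beside the members that rose. Monocyte and neutrophil markers summed to 92.9, 5435 and 372 TPM in Saline + MG-REP libraries 1 to 3 and to 776 to 924 TPM in Saline + CTRL. Abundant genes such as S100a8, at up to 2754 TPM in a library, weigh most in this sum. Within the list, Ccr2 averaged 18.8 TPM in Saline + CTRL and 58.2 TPM in Saline + MG-REP, with no library of the series above 64.1 TPM. Its rise was therefore not confined to library 2. Plac8, at 24.6 and 11.3 TPM in the same order, went the other way. The Ms4a rows summed to 1555 TPM in library 1 and to 1088 TPM in library 2, with library 3 between them, and to 259 to 362 TPM in CTRL. In library 2, Siglec1 was at 174 TPM and Pilra at 80.9 TPM, while Clec4e and Pirb were at their highest there, at 28.4 and 38.5 TPM. In libraries 1 and 3, Clec4e was at 24.6 and 13.4 TPM and Pirb at 23.7 and 30.9 TPM. The part of monocytes and neutrophils in these results was not tested. Border macrophage markers, 7 of 8 with a row, summed to 2168, 1170 and 1148 TPM in Saline + MG-REP and 889 to 1172 TPM in Saline + CTRL. They summed to 653 to 839 TPM in MIA + MG-REP. Among them, Pf4 averaged 137 TPM in Saline + CTRL and 577 TPM in Saline + MG-REP, and Stab1 538 and 597 TPM. In the same order Mrc1 averaged 195 and 186 TPM, Lyve1 44.8 and 30.9 TPM, and Cd163 0.54 and 0.02 TPM. Cbr2 averaged 103 TPM in both groups, and F13a1 1.99 and 2.0 TPM. The part of border macrophages in the Siglec1 and Ms4a results was not tested. Dendritic cell markers, 5 of 8 with a row, summed to 9.53 to 33.3 TPM over the 30 libraries.

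**Figure D3:**
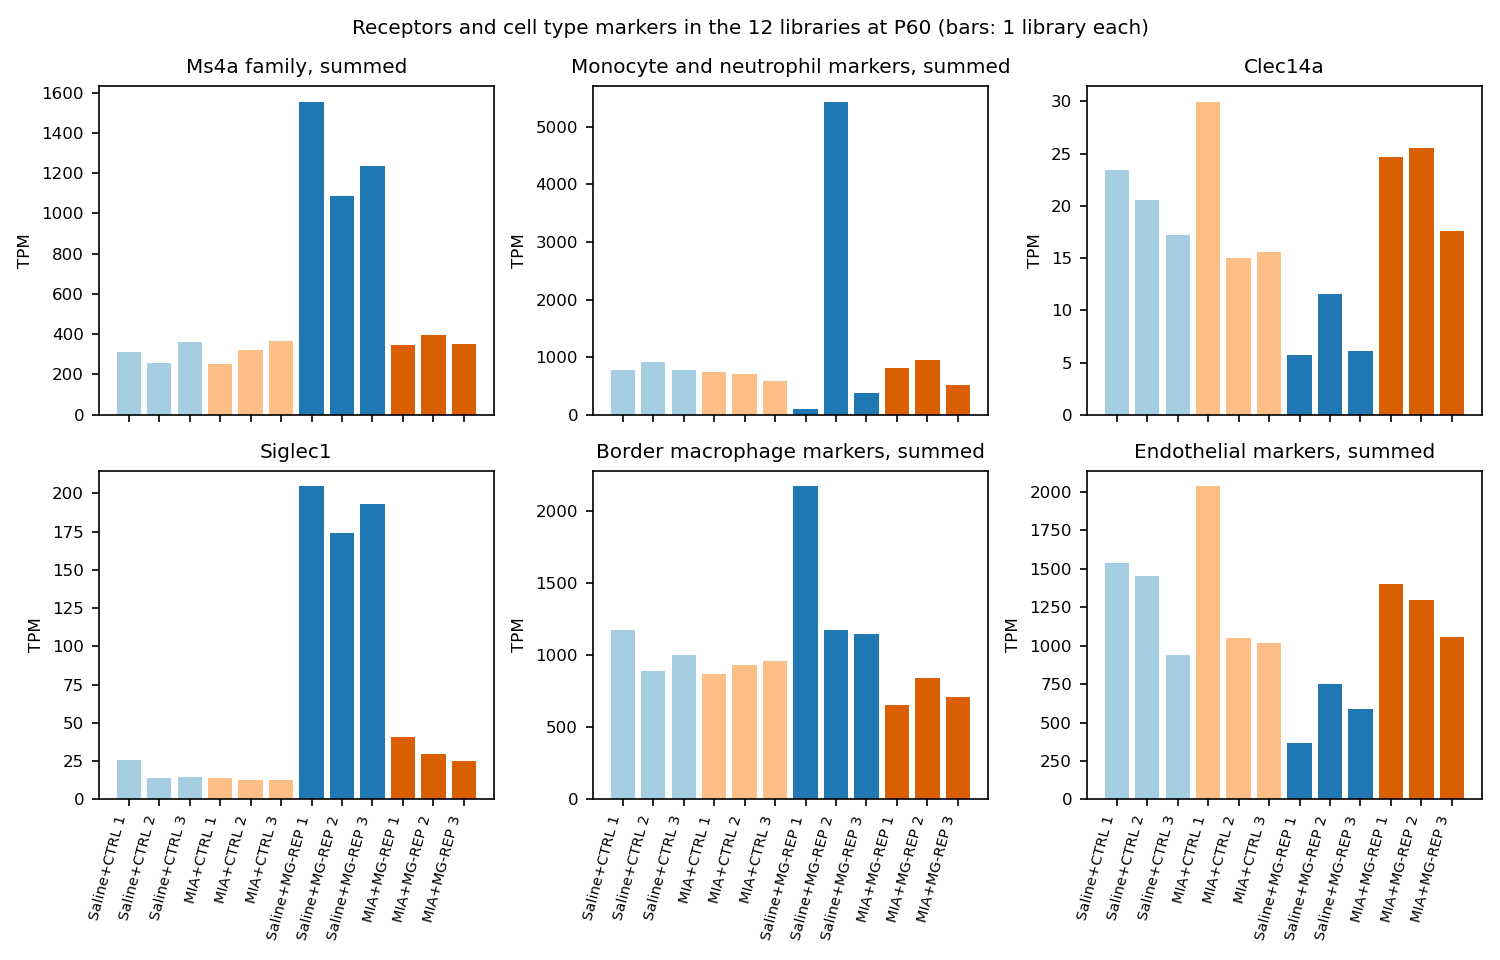
Level in TPM (bars from 0, 1 bar per library) of the summed Ms4a rows, Siglec1 and Clec14a and of 3 summed marker lists in the 12 libraries at P60, in blue for Saline and orange for MIA, pale for CTRL. Ms4a and Siglec1 are high in all 3 Saline + MG-REP libraries, whereas the monocyte and neutrophil sum is high in library 2 alone, and Clec14a and the endothelial sum are both low in that group.

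The same diet was then examined in MIA offspring, where it changed far fewer receptors. Only Pilra, Ms4a4c and Siglec1 were higher in MIA + MG-REP than in MIA + CTRL, 3 of 36 (8.33%) against 0.555% of all transcripts (0.387% higher and 0.169% lower), and no member was called lower. At an unadjusted p under 0.05 there were 6 members (16.7%), against 6.2% of all transcripts. Pilra was 11.9, 10.2 and 12.01 TPM in MIA + CTRL and 46.5, 43.0 and 35.2 TPM in MIA + MG-REP. The groups did not overlap, and the difference was 1.77 ± 0.32 (adjusted p = 0.00452). Ms4a4c rose by 1.47 ± 0.34 (adjusted p = 0.0453), from 4.01, 4.84 and 5.97 TPM to 16.4, 13.5 and 16.1 TPM, and Siglec1 by 1.17 ± 0.27 (adjusted p = 0.0455), from 14.2, 12.8 and 12.9 TPM to 40.9, 29.6 and 24.8 TPM. The Ms4a4c and Siglec1 calls were each lost when any 1 of the 6 libraries was left out (adjusted p from 0.0867 to 0.221 for Ms4a4c and from 0.0548 to 0.363 for Siglec1), and all 3 were lost without the 4 CTRL libraries with Y-linked RNA (adjusted p = 0.198 for Pilra). With Xist as a covariate Pilra was not called (adjusted p = 0.0554). All 3 genes had also risen in Saline offspring, in a comparison with its own control libraries.

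The 2 effects of repopulation differed in 10 of the 36 members (27.8%, against 10.5% of all transcripts), by the interaction term of the fit. In 8 of them the difference was negative, so the effect in MIA lay below that in Saline (6.09% of all transcripts), and in 2 it was positive (4.42%). Ms4a4a, which rose in Saline, stood at 37.6, 38.2 and 38.5 TPM in MIA + CTRL and 26.1, 33.2 and 22.7 TPM in MIA + MG-REP. The repopulated MIA libraries were thus all below the controls, without a call (-0.48 ± 0.40, adjusted p = 0.978), and the effects differed by -3.42 ± 0.56 (adjusted p = 0.000203). For Ms4a6c NM_028595 the MIA values were 35.1, 36.3 and 47.0 TPM in CTRL and 55.2, 60.7 and 51.6 TPM in MG-REP, and the effects differed by -2.64 ± 0.29 (adjusted p = 7.8e-07). The second Ms4a6c transcript differed by -2.23 ± 0.60 (adjusted p = 0.0173), a call lost without Saline + CTRL library 1, Saline + MG-REP library 1 or MIA + MG-REP library 1 (adjusted p = 0.063, 0.0686 and 0.0639). Of the others, Ms4a4c differed by -2.22 ± 0.48 (adjusted p = 0.0032), Ms4a6b by -1.51 ± 0.31 (adjusted p = 0.00219) and Siglec1 by -2.21 ± 0.38 (adjusted p = 0.000361). Without the 4 CTRL libraries with Y-linked RNA, 2 of the 10 calls stood, Ms4a4a (adjusted p = 0.036) and Ms4a6c NM_028595 (adjusted p = 0.00201).

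**Figure D4:**
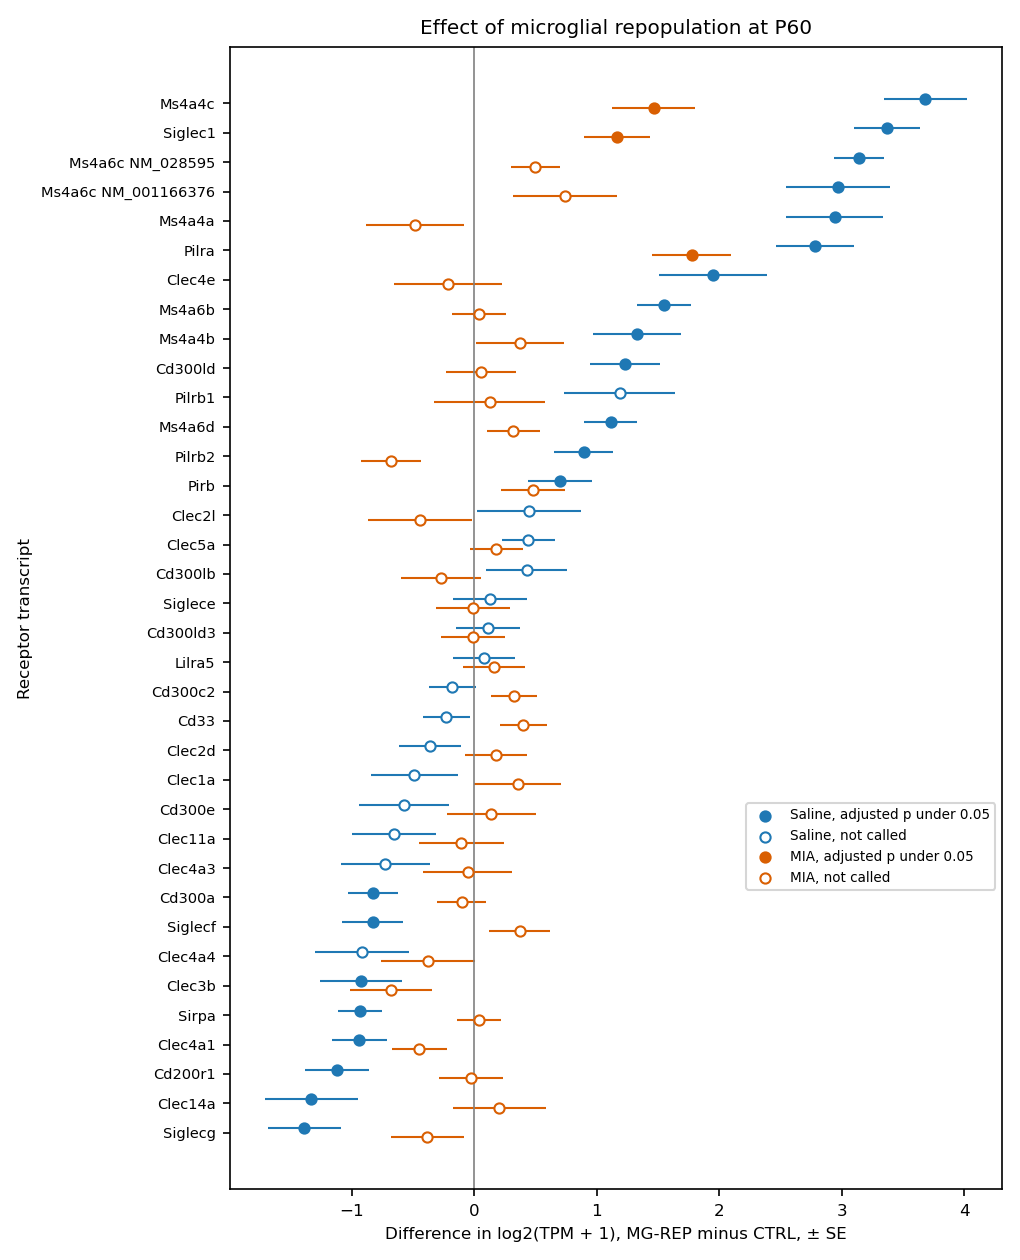
Difference in log2(TPM + 1) between MG-REP and CTRL at P60 (horizontal axis, ± SE) for the 36 receptor transcripts, in Saline offspring (blue) and MIA offspring (orange), with filled points for an adjusted p under 0.05. Filled blue points run from -1.39 (Siglecg) to 3.68 (Ms4a4c), and the 3 filled orange points are Ms4a4c, Siglec1 and Pilra.

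Clec4e and Pilrb2 also differed between the effects. Clec4e was 2.74 to 3.71 TPM in MIA + CTRL and 4.06, 3.79 and 1.16 TPM in MIA + MG-REP, and the difference of the effects was -2.16 ± 0.62 (adjusted p = 0.0257), which was lost without any 1 of 6 of the 12 libraries (Saline + CTRL 1, MIA + CTRL 2 and 3, Saline + MG-REP 1 and 2, MIA + MG-REP 3; adjusted p from 0.0519 to 0.0858). Pilrb2 was 1.03 to 1.82 TPM in MIA + CTRL and 0.27 to 0.94 TPM in MIA + MG-REP, with a difference of -1.57 ± 0.34 (adjusted p = 0.00343). Pilra, the inhibitory partner, rose in both prenatal groups and its effects did not pass the test of their difference (-1.01 ± 0.45, adjusted p = 0.175). The Ms4a4a promoter is given because this gene showed the largest interaction, with its NF-kB match in capitals.
Ms4a4a, chr19:11375238-11375537, plus strand: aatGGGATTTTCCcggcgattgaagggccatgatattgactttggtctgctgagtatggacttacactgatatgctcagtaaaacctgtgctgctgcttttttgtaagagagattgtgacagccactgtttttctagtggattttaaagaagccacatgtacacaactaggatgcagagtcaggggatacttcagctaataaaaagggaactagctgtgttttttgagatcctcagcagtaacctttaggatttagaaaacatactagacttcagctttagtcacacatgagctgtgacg
This window held no PU.1, ISRE, C/EBP or AP-1 letters.

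Sirpa and Siglecf differed the other way. Sirpa was 42.0, 52.5 and 58.2 TPM in MIA + CTRL and 44.8, 58.4 and 53.1 TPM in MIA + MG-REP, so that the groups overlapped and its effect was 0.97 ± 0.25 above that in Saline (adjusted p = 0.013). The call was lost after median-ratio scaling (adjusted p = 0.0932) and quantile normalization (adjusted p = 0.0689). Siglecf was 1.05 to 2.23 TPM in MIA + CTRL and 1.78 to 2.71 TPM in MIA + MG-REP, with a difference of 1.20 ± 0.35 (adjusted p = 0.0292) that was lost without any 1 of 8 of the 12 libraries (adjusted p from 0.0529 to 0.0837) or after quantile normalization (adjusted p = 0.101). Cd200r1 (1.09 ± 0.37, adjusted p = 0.0598), Clec14a (1.54 ± 0.53, adjusted p = 0.0689), Cd300ld (-1.17 ± 0.40, adjusted p = 0.0661) and Ms4a6d (-0.80 ± 0.31, adjusted p = 0.107) did not pass the test. With the repopulated groups set side by side, 13 of the 36 members had all 3 MIA + MG-REP libraries below all 3 Saline + MG-REP libraries (36.1%, against 17.4% of all transcripts) and 9 had them above (25.0%, against 25.3%). The microglial markers summed to 39931 to 44466 TPM in MIA + MG-REP, within the 30124 to 45685 TPM of MIA + CTRL.

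Receptors were next followed over development in Saline offspring. Between E17 and P60 (CTRL), 11 members rose and 8 fell (52.8% called, against 47.5% of all transcripts, 22.1% higher and 25.4% lower), a share near that of the table. Cd33 and Siglece rose with the abundant activating receptor Cd300c2 and several lectins, and 5 of 7 Ms4a rows fell. The largest step in Cd33, Siglece and Cd300c2 came between P7 and P20. In that step 6 members rose and 4 fell (27.8%, against 36.2% of all transcripts, 16.1% higher and 20.1% lower). Between E17 and P7 there were 5 rises and 1 fall (16.7%, against 4.32%, 3.09% higher and 1.23% lower). Between P20 and P60 no member was called by limma, against 3.51% of all transcripts (1.02% higher and 2.49% lower). In this step 8 members (22.2%) had an unadjusted p under 0.05, against 16.4% of all transcripts. Median differences from E17 to P60 were 0.05 over the members and -0.01 over all transcripts.

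Cd33, a Siglec whose human counterpart is linked to Alzheimer's disease, climbed in each step up to P20. It was read at 7.81, 6.72 and 8.71 TPM at E17, 15.2, 10.5 and 14.1 TPM at P7, 26.4, 26.3 and 28.4 TPM at P20 and 20.7, 16.5 and 25.5 TPM at P60. E17, P7 and P20 did not overlap with each other. The rise was 0.69 ± 0.19 from E17 to P7 (adjusted p = 0.0382), 0.99 ± 0.19 from P7 to P20 (adjusted p = 0.000309) and 1.31 ± 0.19 over the whole span to P60 (adjusted p = 5.49e-06). The first step was lost without any 1 of 5 of the 6 libraries, all but P7 Saline library 2 (adjusted p from 0.0649 to 0.183). After median-ratio scaling or quantile normalization it was lost too (adjusted p = 0.102 and 0.25). Siglece was 49.8 to 61.4 TPM at E17, 18.2, 58.5 and 64.8 TPM at P7, 92.9 to 125 TPM at P20 and 111 to 162 TPM at P60. P7 Saline library 1 was far below the other 2 of its group, and the rise was 1.39 ± 0.30 from P7 to P20 (adjusted p = 0.000976) and 1.21 ± 0.30 from E17 to P60 (adjusted p = 0.00213). The longer rise was lost without the 4 CTRL libraries with Y-linked RNA (adjusted p = 0.0588). Siglec1 rose from 11.3 to 15.9 TPM at E17 to 27.8 to 31.6 TPM at P7 (1.05 ± 0.27, adjusted p = 0.0256) and was back at 14.3 to 25.5 TPM at P60. Its P7 call was lost without any 1 of the 6 libraries (adjusted p from 0.0548 to 0.119). Median-ratio scaling (adjusted p = 0.0663) and quantile normalization (adjusted p = 0.131) lost it as well. Border macrophage markers summed to 1601 to 2194 TPM at E17, 2531 to 2793 TPM at P7 and 889 to 1172 TPM at P60. The part of those cells in the Siglec1 values was not tested. Siglecf rose from P7 to P20 (0.65 ± 0.25, adjusted p = 0.0435), with overlapping groups, and Siglecg was not called in any step.

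The Cd300 family split by age. Cd300c2 was 253, 298 and 319 TPM at E17, 290 to 306 TPM at P7, 469, 562 and 479 TPM at P20 and 526, 429 and 598 TPM at P60. Its 2 early ages overlapped, and both later ages lay above them, with a rise of 0.75 ± 0.19 from P7 to P20 (adjusted p = 0.00359) and 0.83 ± 0.19 from E17 to P60 (adjusted p = 0.000928). Cd300ld3 rose from 0.15 to 0.61 TPM at E17 to 1.86 to 4.23 TPM at P60 (1.46 ± 0.26, adjusted p = 7.22e-05). It was also called higher at P7, at 1.41 to 1.96 TPM. That call was lost without any 1 of 5 of the 6 libraries, all but P7 Saline library 3 (adjusted p from 0.0549 to 0.163). Median-ratio scaling (adjusted p = 0.0508) and quantile normalization (adjusted p = 0.0958) lost it as well. Cd300lb, a DAP12-coupled member, went down from 7.06 to 11 TPM at E17 to 2.77 to 5.40 TPM at P60 (-1.03 ± 0.33, adjusted p = 0.012), mostly between P7 and P20 (-1.15 ± 0.33, adjusted p = 0.00831). The longer fall was lost without E17 Saline library 1 (adjusted p = 0.0554) or Saline + CTRL library 2 (adjusted p = 0.0638), and without the 4 CTRL libraries with Y-linked RNA (adjusted p = 0.0953). Cd300ld fell between P7 and P20 (-1.11 ± 0.29, adjusted p = 0.00404), from 10.5 to 17.3 TPM down to 4.65 to 5.98 TPM. Cd300a ranged from 83.8 to 123 TPM up to P20, and its difference from E17 to P60 (-0.40 ± 0.20, adjusted p = 0.104) was not called.

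Lectins of the Clec4a group moved apart. Clec4a1 was 54.9, 71.0 and 70.3 TPM at E17, 57.6 to 68.6 TPM at P7, 37.8 to 42.1 TPM at P20 and 34.6, 22.95 and 34.2 TPM at P60. It fell by 1.09 ± 0.22 over the whole span (adjusted p = 0.000329). The step from P7 to P20 was called (-0.64 ± 0.22, adjusted p = 0.0291) but was lost without P7 Saline library 2 or 3 or P20 Saline library 1 or 3 (adjusted p from 0.0571 to 0.0891), and the step from P20 to P60 was not called (-0.39, adjusted p = 0.412). Its neighbour Clec4a3 rose by 1.28 ± 0.36 (adjusted p = 0.00535), from 2.92 to 3.95 TPM at E17 to 5.93, 12.02 and 11.4 TPM at P60, and Clec4a4 was at 0.43 to 3.53 TPM in Saline offspring fed control chow, without a call. Without the 4 CTRL libraries with Y-linked RNA the Clec4a3 difference was 0.70 and no longer called (adjusted p = 0.321). Clec2d rose from 59.5, 33.5 and 41.9 TPM at E17 to 112, 108 and 86.9 TPM at P60 (1.20 ± 0.26, adjusted p = 0.000454). Clec2l, known from neurons, rose by 1.78 ± 0.43 (adjusted p = 0.00134), from 3.13 to 5.03 TPM to 17.3, 29.3 and 8.16 TPM. Its step from P7 to P20 was called as well and was lost without P7 Saline library 3 (adjusted p = 0.0541). The 4 neuronal markers with a row summed to 152 to 319 TPM at E17 and to 113, 147 and 45.5 TPM in the 3 P60 libraries. The 5 astrocyte markers summed to 121 to 181 TPM at E17 and to 501, 942 and 272 TPM at P60. The 5 oligodendrocyte lineage markers with a row summed to 33.6 to 40.4 TPM at E17 and to 418, 1001 and 273 TPM at P60. At P60 the library order of Clec2l was that of all 3 sums, and the part of these cells in the Clec2l values was not tested. Lilra5 rose by 0.80 ± 0.25 from E17 to P60 (adjusted p = 0.012), from 17.2 to 23.4 TPM to 32.5 to 44.1 TPM.

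Lectins tied to vessels and matrix changed as well. Clec14a fell by 1.42 ± 0.38 between P7 and P20 (adjusted p = 0.00502), from 36.7, 42.4 and 49.5 TPM to 19.4, 11.8 and 15.5 TPM, and by 1.03 ± 0.38 between E17 and P60 (adjusted p = 0.0278). At E17 it was 73.2, 24.4 and 42.4 TPM in libraries whose endothelial markers summed to 3162, 998 and 1962 TPM, so the library order of the 2 was the same. The sum was 2009 to 2179 TPM at P7, 678 to 1329 TPM at P20 and 940 to 1539 TPM at P60, and the part of vessel cells was not tested. Without E17 Saline library 1 the difference from E17 to P60 was -0.64 (adjusted p = 0.196). It was also lost without E17 Saline library 3, Saline + CTRL library 2 or Saline + CTRL library 3 (adjusted p from 0.0568 to 0.0859), and without the 4 CTRL libraries with Y-linked RNA (-0.83, adjusted p = 0.27). Clec3b rose by 1.80 ± 0.34 from E17 to P60 (adjusted p = 0.000112), from 4.69, 1.98 and 2.48 TPM to 11.8 to 13.2 TPM, most of it by P7 (1.58 ± 0.34, adjusted p = 0.00819). Clec1a rose by 1.45 ± 0.36 from E17 to P7 (adjusted p = 0.0183) and Clec11a by 0.89 ± 0.34 from E17 to P60 (adjusted p = 0.0371) from 1.12 to 1.19 TPM. Clec1a had been at 3.1, 0.6 and 1.71 TPM at E17. Its difference from E17 to P60 was called too, and was lost without E17 Saline library 2 (adjusted p = 0.101) or Saline + CTRL library 1 (adjusted p = 0.0708). The P7 call of Clec3b was lost without E17 Saline library 2 (adjusted p = 0.0534), that of Clec1a without any 1 of 4 libraries (adjusted p from 0.052 to 0.135) and that of Clec11a without any 1 of 5 (adjusted p from 0.0701 to 0.157).

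Ms4a genes were lower in adult control microglia than at E17 for 5 of the 7 rows. Ms4a4c dropped by 2.25 ± 0.34 between E17 and P7 (adjusted p = 0.000317), from 9.81, 9.90 and 14.6 TPM to 0.76, 3.70 and 1.07 TPM. It was still at 3.83 to 5.53 TPM at P60, 1.09 ± 0.34 below E17 (adjusted p = 0.0109). From E17 to P60, Ms4a6c NM_028595 fell by 0.77 ± 0.20 (adjusted p = 0.0029), Ms4a6c NM_001166376 by 1.18 ± 0.43 (adjusted p = 0.0254), Ms4a4a by 1.15 ± 0.40 (adjusted p = 0.0203) and Ms4a6d by 0.57 ± 0.22 (adjusted p = 0.0339). Without the 4 CTRL libraries with Y-linked RNA the calls of Ms4a4c, Ms4a4a, Ms4a6d and Ms4a6c NM_028595 were lost (adjusted p from 0.0785 to 0.233). Ms4a6d lost its call without any 1 of 4 libraries (adjusted p from 0.0698 to 0.144). It also lost it after median-ratio scaling (adjusted p = 0.116) and quantile normalization (adjusted p = 0.153). Ms4a4a lost its call without E17 Saline library 2 (adjusted p = 0.0647) or Saline + CTRL library 2 (adjusted p = 0.0627). The second Ms4a6c transcript lost it without E17 Saline library 2 (adjusted p = 0.11) or Saline + CTRL library 1 (adjusted p = 0.156), and Ms4a4c without E17 Saline library 3 (adjusted p = 0.0575). Neither Ms4a6b (-0.23 ± 0.22, adjusted p = 0.414) nor Ms4a4b (0.77 ± 0.36, adjusted p = 0.0816) was called. The Pilr genes, Sirpa, Cd200r1, Pirb, Clec4e, Clec5a and Cd300e were not called between E17 and P60 in Saline offspring.

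**Figure D5:**
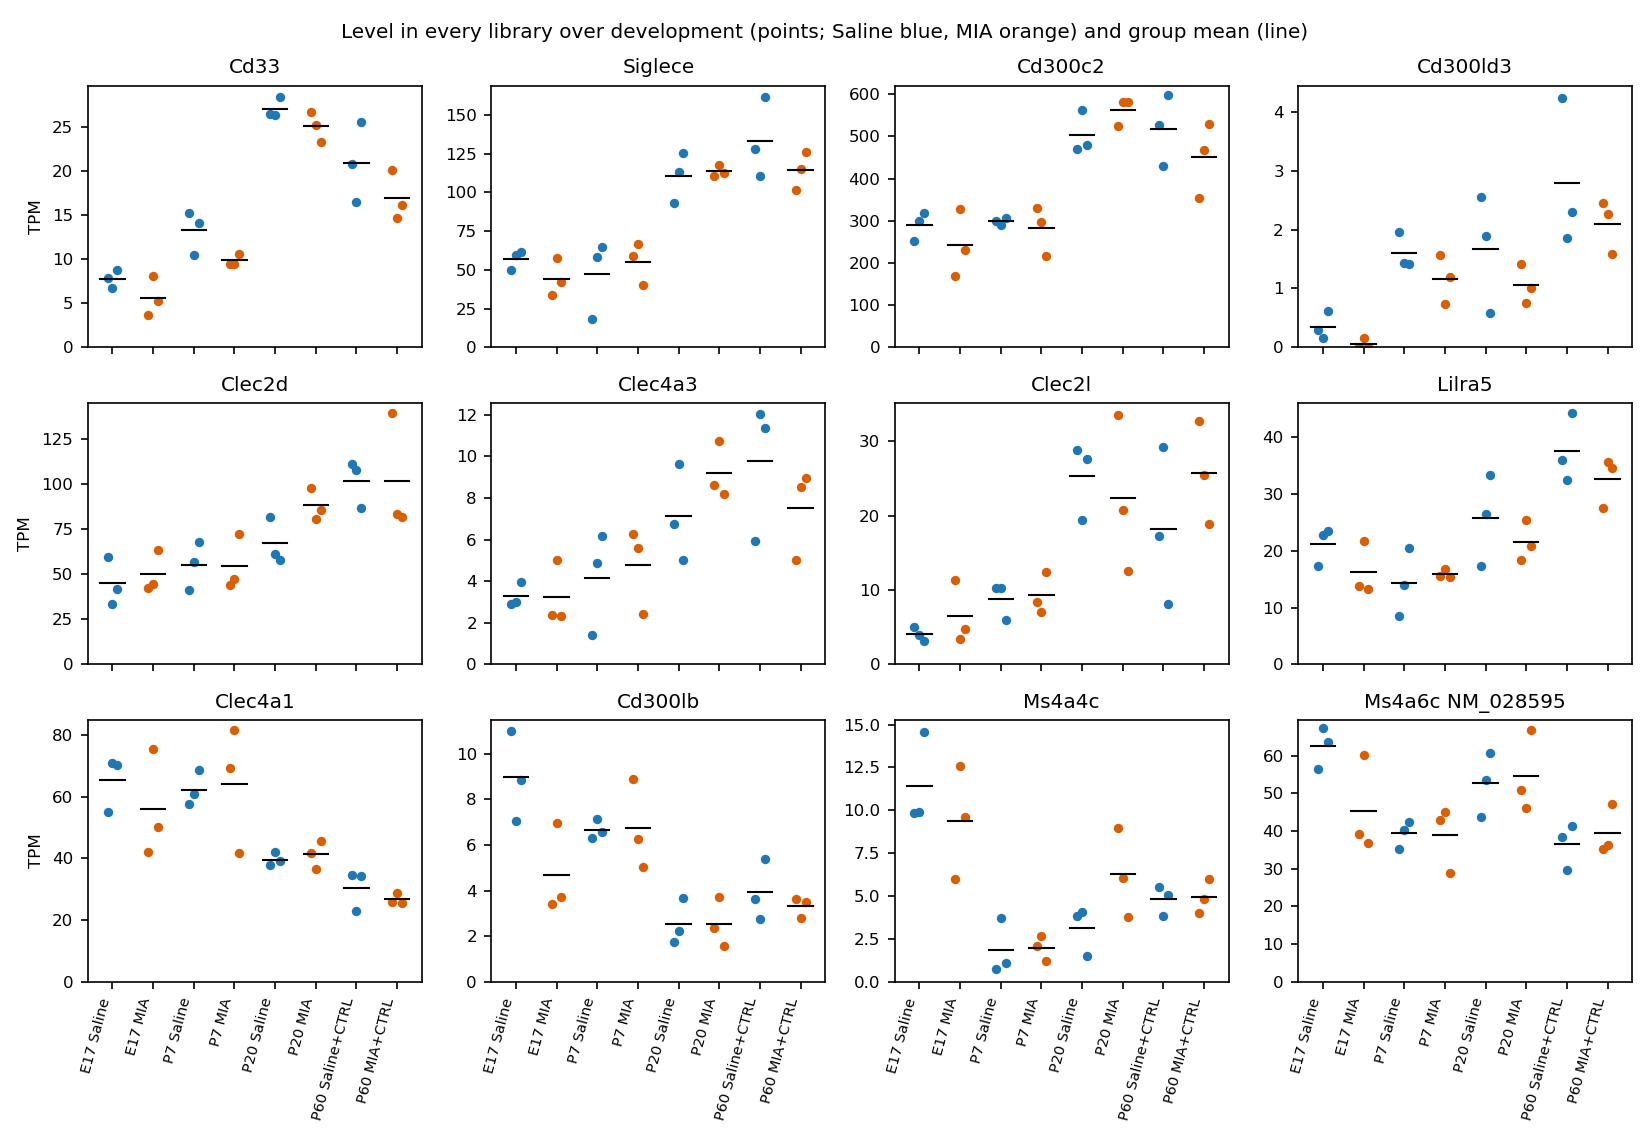
Level in TPM (vertical axes, linear, from 0) of 12 receptor transcripts in every library (points, Saline blue and MIA orange) with the group mean (line) at E17, P7, P20 and P60 (CTRL). Cd33, Siglece and Cd300c2 step up between P7 and P20 in both prenatal groups, and the means of Clec4a1 and Cd300lb are lower at P20 than at P7.

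In MIA offspring, 10 members rose and 2 fell between E17 and P60 CTRL (33.3%, against 48.1% of all transcripts, 19.3% higher and 28.8% lower), over libraries that are all separate from the Saline ones. Cd33 went from 3.62, 8.09 and 5.18 TPM to 20.1, 14.7 and 16.1 TPM (1.48 ± 0.19, adjusted p = 1.03e-06), Cd300ld3 rose by 1.55 ± 0.26 (adjusted p = 3.5e-05), Clec2l by 1.93 ± 0.43 (adjusted p = 0.000637), Siglece by 1.37 ± 0.30 (adjusted p = 0.000647), Lilra5 by 0.99 ± 0.25 (adjusted p = 0.00249), Clec2d by 0.98 ± 0.26 (adjusted p = 0.00274) and Cd300c2 by 0.93 ± 0.19 (adjusted p = 0.000303). Clec14a fell by 1.52 ± 0.38 (adjusted p = 0.00192) and Clec4a1 by 1.00 ± 0.22 (adjusted p = 0.000749). The Clec4a3 rise of 1.03 ± 0.36 (adjusted p = 0.0215) was lost without any 1 of 4 libraries (adjusted p from 0.0726 to 0.0848). Without the 4 CTRL libraries with Y-linked RNA the calls of Clec4a3 (0.57, adjusted p = 0.414), Clec14a (-0.90, adjusted p = 0.217), Lilra5 (0.76, adjusted p = 0.131) and Cd300c2 (0.60, adjusted p = 0.0798) were lost. Clec3b and Cd200r1 (0.72 ± 0.26, adjusted p = 0.0262) were also called higher, with overlapping libraries. No Ms4a row was called, at a lowest difference of -0.86 ± 0.43 (Ms4a6c NM_001166376, adjusted p = 0.0998). Whether development differed between the prenatal groups was not tested.

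Last, MIA was compared with Saline at each age. No member and no other transcript passed the adjusted threshold at E17, P7, P20 or P60 CTRL (0% of 14225 each time, by limma). At an unadjusted p under 0.05 there were 4 members (11.1%) at E17, 2 (5.56%) at P7, 2 (5.56%) at P20 and 0 at P60. The shares of all transcripts were 4.11%, 2.36%, 3.21% and 1.8% in the same order. At E17 Clec3b was higher in MIA (11.6, 5.18 and 7.14 TPM against 4.69, 1.98 and 2.48 TPM, 1.14 ± 0.34, adjusted p = 0.754) and Cd300lb lower (3.40, 6.98 and 3.73 TPM against 11, 7.06 and 8.86 TPM, -0.84 ± 0.33, adjusted p = 0.754). Neither of these pairs of groups overlapped, as in 2 of 36 members and 6.05% of all transcripts. Of the 36 members 29 were lower in MIA than in Saline at E17, with a median of -0.30 against 0.10 over all transcripts, and 24 of 36 when E17 MIA library 1 was left out. That library was lowest in microglial markers (16514 TPM) and highest in neuronal markers (1148 TPM), and its part in the lower values was not tested.

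At P7 the smallest p-values were those of Pilrb2 (-0.61, 95% confidence interval -1.11 to -0.11), Ms4a4a (-0.82, interval -1.65 to -0.00161) and Cd33 (-0.38, interval -0.78 to 0.01), each at an adjusted p of 1. In Ms4a4a, P7 Saline library 1 stood at 154 TPM against 51.4 and 45.6 TPM in the other 2. At P20 Cd300e was 2.96, 2.26 and 1.79 TPM in MIA and 0.32, 1.00 and 0.00 TPM in Saline. These groups did not overlap, and the difference of 1.26 (interval 0.50 to 2.01) had an adjusted p of 1. By the read estimate, 1 read on Cd300e was worth a median of 0.124 TPM. Ms4a4c (0.82, interval 0.12 to 1.52) and Clec3b (0.68, interval -0.01 to 1.38) followed. At P60 CTRL the smallest were Cd33 (-0.28, interval -0.67 to 0.12), Clec2l (0.60, interval -0.28 to 1.48) and Siglec1 (-0.37, interval -0.93 to 0.19), all at an adjusted p of 1.

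Between P20 and P60 in Saline offspring the members with the smallest p were Cd300e (1.05 ± 0.37, adjusted p = 0.119), Ms4a4a (-1.12 ± 0.40, adjusted p = 0.13) and Ms4a6c NM_028595 (-0.52 ± 0.20, adjusted p = 0.17). Their libraries did not overlap, as in 7 of 36 members and 19.4% of all transcripts. Ms4a4a was 59.1, 80.4 and 102 TPM at P20 and 39.7, 31.8 and 36.1 TPM at P60.

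Partners of these receptors were read from lists of genes that signal with them, carry their ligands or belong to related families. The share of all transcripts called in Saline + MG-REP against Saline + CTRL was 26.7% (11.9% higher and 14.9% lower). In that comparison 4 of 14 adaptor and kinase transcripts were higher and none lower (28.6%, near the share of the table), namely Tyrobp, which is DAP12 (0.80 ± 0.20, adjusted p = 0.00456), Fcer1g (0.70 ± 0.20, adjusted p = 0.0117), Fgr and Plcg2. Of 9 transcripts of ITIM-binding phosphatases and docking proteins 1 was higher, Dok2 (1.69 ± 0.40, adjusted p = 0.00258). Of 15 ligand genes 5 were higher and none lower, Klrb1b, the receptor that meets Clec2d, rising most (3.07 ± 0.33, adjusted p = 9.89e-08), with the MHC class I genes H2-D1 (0.84 ± 0.17, adjusted p = 0.000646) and B2m (0.74 ± 0.20, adjusted p = 0.0059) that Pirb meets. Sialic acid genes were mixed, with 2 of 27 higher and 6 lower (29.6%, also near that share), St8sia1 at 2.17 ± 0.41 (adjusted p = 0.000277) and the sialyltransferase St3gal6 at -1.48 ± 0.15 (adjusted p = 8.34e-08) among them.

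Other lectins were 4 higher and 9 lower of 26, from Cd69 (4.71 ± 0.28, adjusted p = 1.82e-11) to Cd209f (-4.17 ± 0.41, adjusted p = 3.82e-08), and other paired or inhibitory receptors were 11 higher and 2 lower of 18, with Cd52 at 2.98 ± 0.18 (adjusted p = 1.82e-11) and Trem1 at 3.01 ± 0.50 (adjusted p = 5.89e-05). In MIA offspring the calls in these lists were H2-D1 (0.81 ± 0.17, adjusted p = 0.0232), Cd69 (1.35 ± 0.28, adjusted p = 0.0204), Pdcd1 (2.86 ± 0.26, adjusted p = 2.66e-07) and Cd52 (1.25 ± 0.18, adjusted p = 0.000375), all higher. Between E17 and P60 in Saline offspring, Tyrobp was not called and Fcer1g fell (-0.55 ± 0.20, adjusted p = 0.0271). Of the sialic acid genes, St3gal6 rose over the same span (1.58 ± 0.15, adjusted p = 1.56e-08) and Nans, which makes sialic acid, fell (-1.37 ± 0.18, adjusted p = 1.62e-06). Clec12a, an inhibitory lectin left out by the rule, was at 14.4 ± 3.34 TPM in Saline + CTRL and 119.6 ± 33.2 TPM in Saline + MG-REP (2.95 ± 0.36, adjusted p = 8.5e-07).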

How the data were processed

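RNA of CD11B bead-isolated microglia was measured in 30 libraries, grouped by the labels into 10 groups of 3. The authors made non-stranded poly(A) libraries, read 40 bases, aligned to mm10, counted reads with featureCounts, required CPM to reach 2 in 3 or more libraries, and deposited TPM per library with a column that assigns each transcript to 1 of 5 modules. How TPM was computed from the counts, and tool versions, are not given in the sources used here. Without strand, reads of overlapping antisense genes cannot be told apart.

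Deposited TPM are not counts, so no count model was fitted. From them, log2(TPM + 1) of all 14225 transcripts was fitted with limma 3.58.1 (R 4.3.3; 1 coefficient per group, empirical Bayes with trend, Benjamini-Hochberg over 14225). Tables and figures were made with Python 3.11.15. The fit was tested on simulated data. Reads were estimated from steps of low TPM and transcript length, and 72.8% to 77.9% of values lay within 0.2 of a whole read, so no counts were recovered. Positions and promoters are from RefSeq (GRCm38.p6). Symbols or transcript accessions matched for 36 of 36 members, and 35 of 36 had a length. Library numbers paired the samples by their deviations (correlation over 0.1 in every pair) only for MIA against Saline at P20, at 0.104 to 0.238.

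The members, gene lists and tests were chosen with earlier results of these data known. Members named with SE and adjusted p are the 10 largest rises and falls that were called with groups that do not overlap, or the 3 smallest p where none was, and further members were added after their values were seen. Alternatives were the pseudocount, a filter on low means, 2 other scalings, a replicate block, the moderation, the samples in the fit, Xist as a covariate and leaving out each library. Leaving out the 4 CTRL libraries with Y-linked RNA was added after seeing the data. The summed level of 1 marker list is not reported here.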

Additional observations from a re-analysis of the deposited data

Results flagged for a closer look

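The effect of repopulation differed between MIA and Saline offspring, by the interaction term of the fit at an adjusted p under 0.05, in 10 of 36 receptor transcripts. That is 27.8%, against 10.5% of all transcripts. The effect in MIA minus the effect in Saline was -3.42 for Ms4a4a, -2.64 for Ms4a6c NM_028595, -2.23 for Ms4a6c NM_001166376, -2.22 for Ms4a4c, -2.21 for Siglec1, -2.16 for Clec4e, -1.57 for Pilrb2 and -1.51 for Ms4a6b in log2(TPM + 1). For Sirpa it was 0.97 and for Siglecf 1.20. The 3 Saline + MG-REP libraries were above all of the other 27 libraries for 7 of these transcripts and below all of those for Sirpa and Siglecf. Over all transcripts the shares were 2.12% above and 4.79% below. The interaction term uses the same Saline + MG-REP values, so this is not separate evidence. Pilrb2 in Saline + MG-REP library 3 (2.12 TPM) was below the highest library elsewhere, E17 Saline library 3 at 2.35 TPM. Groups of 3 libraries are too small for a test of single libraries that stand apart.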

How the results depend on the processing

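The next counts cover only the calls of members named by the naming rule above, and none of those changed direction. Leaving out 1 library kept 409 of 498 such calls past the threshold and lost 89, and the other settings kept 536 of 601 and lost 65. Called members outside that rule are not counted there. Among them, for repopulation in Saline, Pirb was called in 7 of 15 alternatives, Pilrb2 in 13 and Ms4a6d in 15. From E17 to P7 in Saline, 6 members were called, 3 after median-ratio scaling, 3 after quantile normalization and 1 to 5 with a library left out. With Xist as a covariate, repopulation in MIA offspring gave 0 calls in place of 3, after quantile normalization 1, and 1 with any library left out. Without the 4 CTRL libraries with Y-linked RNA, which leaves 1 library in each CTRL group, assumed to vary like the others, the calls went from 3 to 0 for repopulation in MIA, from 10 to 2 for the difference of the effects, from 19 to 10 for E17 to P60 in Saline and from 12 to 6 in MIA. With the replicate block, repopulation gave 21 calls in Saline and 2 in MIA (Ms4a4c lost, adjusted p = 0.0581) and the block changed no other count. At E17 the median of all transcripts for MIA against Saline moved from 0.10 to -0.02 after quantile normalization, and the members' median from -0.30 to -0.39. After either scaling, 2 of the 3 calls from E17 to P7 were rises (5 of 6 before), and after quantile normalization 1 of 8 differences of the effects was positive (2 of 10 before). The cause was not tested. With 3 libraries a group an exact permutation test of 1 value cannot go below 0.1. Members near 1 TPM rest on a few reads by the read estimate, which is uncertain.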
